A study of Mus musculus with 6 samples.

Results

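Fgf5, Pou3f1, Otx2, T, Mixl1, Eomes, Evx1, Lhx1, Gsc and Cer1 mark the primed epiblast and the primitive streak, and their expression was read in FAH-/--iPS cells as a measure of priming or early differentiation in each line. Members were every probe of the Illumina mouse-8 V2 BeadChip whose annotated gene symbol is one of these 10 names, which gave 10 probes of 9 genes among 25697 probes and 16593 genes. The expression of T was not analysed here. Expression was measured on 6 arrays, 1 for each culture, and no culture was arrayed again. FAH-/--iPS cell lines #4 and #7 were derived from C57BL/6 FAH-/- fetal fibroblasts, which lack a working fumarylacetoacetate hydrolase, the last enzyme of tyrosine breakdown, by pMX retroviral transfer of Oct4, Sox2, Klf4 and c-Myc. The FAHgc-iPS lines, #7.1 and #7.2, are gene-corrected subclones of line #7 that received an FAH cDNA and EGFP, joined by a 2A peptide, from a lentiviral vector with the SFFV promoter, and they keep the disrupted endogenous gene and the retroviral factors of line #7. These lines were set against OG2 ES cells, which carry an Oct4-GFP reporter and a working Fah gene, and against the FAH-/- MEFs, a mixed-sex population of starting fibroblasts. Each line is 1 clone, and the iPS cells were grown on MEF feeder cells.

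Mouse ES and iPS cells in standard culture resemble the naive epiblast of the blastocyst. When such cells leave that state, they switch on Fgf5, a secreted growth factor, and the transcription factors Pou3f1 and Otx2, which mark the formative and primed epiblast around implantation. Nodal, Wnt and BMP signals then set up the primitive streak at the posterior side of the epiblast, where the T-box factors T and Eomes and the homeobox factors Mixl1 and Evx1 are expressed. Lhx1 and Gsc, both homeobox factors, and Cer1, a secreted antagonist of Nodal, BMP and Wnt ligands, belong to the anterior streak and its mesendoderm, and Lhx1 and Cer1 also to the anterior visceral endoderm.

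All values are log2 signals after background correction and quantile normalization, and above background means a signal more than 2.326 noise SDs over the background of the array. The background of the exported signal was 89.1 to 109 units and its noise SD 5.27 to 7.53, and 45.8% to 48.6% of the probes were above it on each array, so that the lowest log2 signal above background lay between 6.30 and 6.35. Signals of different probes share no scale, and levels are compared only within a gene. Pou5f1, the gene of Oct4, read 11.99 to 12.43 in the 4 iPS cell lines, 12.33 in OG2 ES cells and 6.10, not above background, in FAH-/- MEFs. The 14 measured fibroblast markers were all above background in the MEFs, and 9 or 10 of them were in each iPS cell line and 10 in the ES cells. Fah itself read 6.99 to 7.24 in the iPS cell lines and 8.89 in the ES cells and was not above background in the MEFs, but where its probe lies relative to the disruption and to the cDNA is not known, so it checks no label.

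Of the 9 measured genes, 8 were above background on at least 1 array. Fgf5 and Gsc were above it on all 6 arrays, Pou3f1, Otx2, Eomes and Evx1 in all 4 iPS cell lines and in the ES cells but not in the MEFs, and Cer1 and Lhx1 in line #7 and both of its subclones but not in line #4. Mixl1, an early streak factor, was not above background on any array with either of its 2 probes, so that no level can be given for it in any of the 6 cultures.

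Among the genes of the primed epiblast, Fgf5 varied most between the iPS cell lines. It read 6.68 in line #4, 8.12 in #7, 7.61 in #7.1 and 8.20 in #7.2, against 6.99 in OG2 ES cells and 6.47 in FAH-/- MEFs. Line #4 thus lay between the MEFs and the ES cells, and the 3 lines of the #7 family lay above both. Lines #7 and #7.2, neighbours in this order, were 0.09 apart, less than the SD of 0.32 within the #7 family. Line #4 was 0.21 from the MEFs and 0.31 from the ES cells, each also less than that SD. The 250 bases upstream of the annotated start of Fgf5 and of Gsc, described further on, are shown because these were the members called between line #4 and the #7 family. Capitals mark each CpG, the dinucleotide that carries DNA methylation. The sequences are from RefSeq (GRCm38.p6), given 5′ to 3′ on the strand of the gene, chr5:98253934-98254183 on the plus strand for Fgf5 and chr12:104473237-104473486 on the minus strand for Gsc.

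Fgf5: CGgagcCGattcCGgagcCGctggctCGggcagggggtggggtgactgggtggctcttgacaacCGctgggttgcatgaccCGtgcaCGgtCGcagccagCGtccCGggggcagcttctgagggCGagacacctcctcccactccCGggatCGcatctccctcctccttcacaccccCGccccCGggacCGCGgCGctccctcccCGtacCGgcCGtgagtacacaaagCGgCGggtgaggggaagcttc
Gsc: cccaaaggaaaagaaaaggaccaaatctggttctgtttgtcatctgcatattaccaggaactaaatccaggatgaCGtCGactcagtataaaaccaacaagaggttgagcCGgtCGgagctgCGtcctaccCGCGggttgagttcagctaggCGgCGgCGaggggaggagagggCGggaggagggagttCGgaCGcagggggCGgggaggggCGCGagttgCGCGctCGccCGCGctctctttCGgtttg

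The Fgf5 window holds 24 CpGs and 70.8% G and C, and the Gsc window 22 CpGs and 59.2%, against medians of 6 CpGs and 52.4% over 32851 upstream windows of all annotated starts. In all, 8 of the 10 named genes matched the table, with 11 windows. Lhx1 had 26 CpGs, T 14, Evx1 10, Eomes 8 and Cer1 5, and the 4 starts of Otx2 had 6 to 14. No methylation was measured here. On both strands, these windows were searched for TAATCC, the site of Otx2, Gsc and other bicoid-class homeodomains (in 6.25% of all windows), TCAAAG of the TCF/LEF factors (13.8%), AATNCACA of FOXH1 (3.18%), AGGTGTG of T-box factors (5.1%), the octamer ATGCAAAT of POU factors (1.6%) and CAGAC of the SMADs (42.2%). Neither the Fgf5 nor the Gsc window held any of these letters. The Evx1 window held the T-box, octamer and SMAD letters, those of Lhx1 and Cer1 the SMAD letters, that of T the TCF/LEF letters, and 1 of the Otx2 windows TAATCC.

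Pou3f1, a POU factor of the formative epiblast and of neural precursors, hardly varied between the lines. Its log2 signal was 9.24 in line #4, 9.32 in #7, 9.31 in #7.1 and 9.23 in #7.2, against 8.25 in OG2 ES cells and 5.92, not above background, in FAH-/- MEFs. All 4 lines lay about 1 log2 unit above the ES cells and within 0.09 of each other. Otx2, a homeobox factor of the epiblast and later of the anterior neural plate, read 8.20 in line #4, 8.92 in #7, 8.05 in #7.1 and 8.66 in #7.2, against 9.06 in the ES cells and 6.02, not above background, in the MEFs. Here the ES cells were above each of the 4 lines, and subclones #7.1 and #7.2 lay on either side of line #4.

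The streak genes had signals close to background. Eomes, which acts in streak formation and definitive endoderm, read 6.82 in line #4, 6.68 in #7, 6.60 in #7.1 and 6.84 in #7.2, against 6.57 in OG2 ES cells and 6.11, not above background, in FAH-/- MEFs. The range over the 4 lines was 0.24, and the ES cells lay just below it. Evx1, a posterior streak gene, read 6.41 in line #4, 6.73 in #7, 6.43 in #7.1 and 6.38 in #7.2, against 6.54 in the ES cells and 6.15, not above background, in the MEFs. Line #7 stood above the other lines, which spanned 0.05.

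The anterior genes, in contrast, were lowest of the iPS cell lines in line #4. Gsc, a homeobox repressor of the organizer and node, read 6.38 in line #4, 7.36 in #7, 7.62 in #7.1 and 7.47 in #7.2, against 6.84 in OG2 ES cells and 6.64 in FAH-/- MEFs. The 3 lines of the #7 family lay above all other cultures, and line #4 below all of them. Lhx1, which cooperates with Otx2 in head formation, read 6.00 in line #4, where it was not above background, 6.93 in #7, 6.48 in #7.1 and 6.56 in #7.2. It was not above background in the ES cells (6.21) or the MEFs (6.01) either. Cer1 read 6.21 in line #4, not above background, 6.67 in #7, 6.54 in #7.1 and 6.74 in #7.2, against 6.46 in the ES cells and 6.18, not above background, in the MEFs. With 1 bulk array a culture, fewer cells with a transcript and less transcript per cell cannot be told apart.

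**Figure D1:**
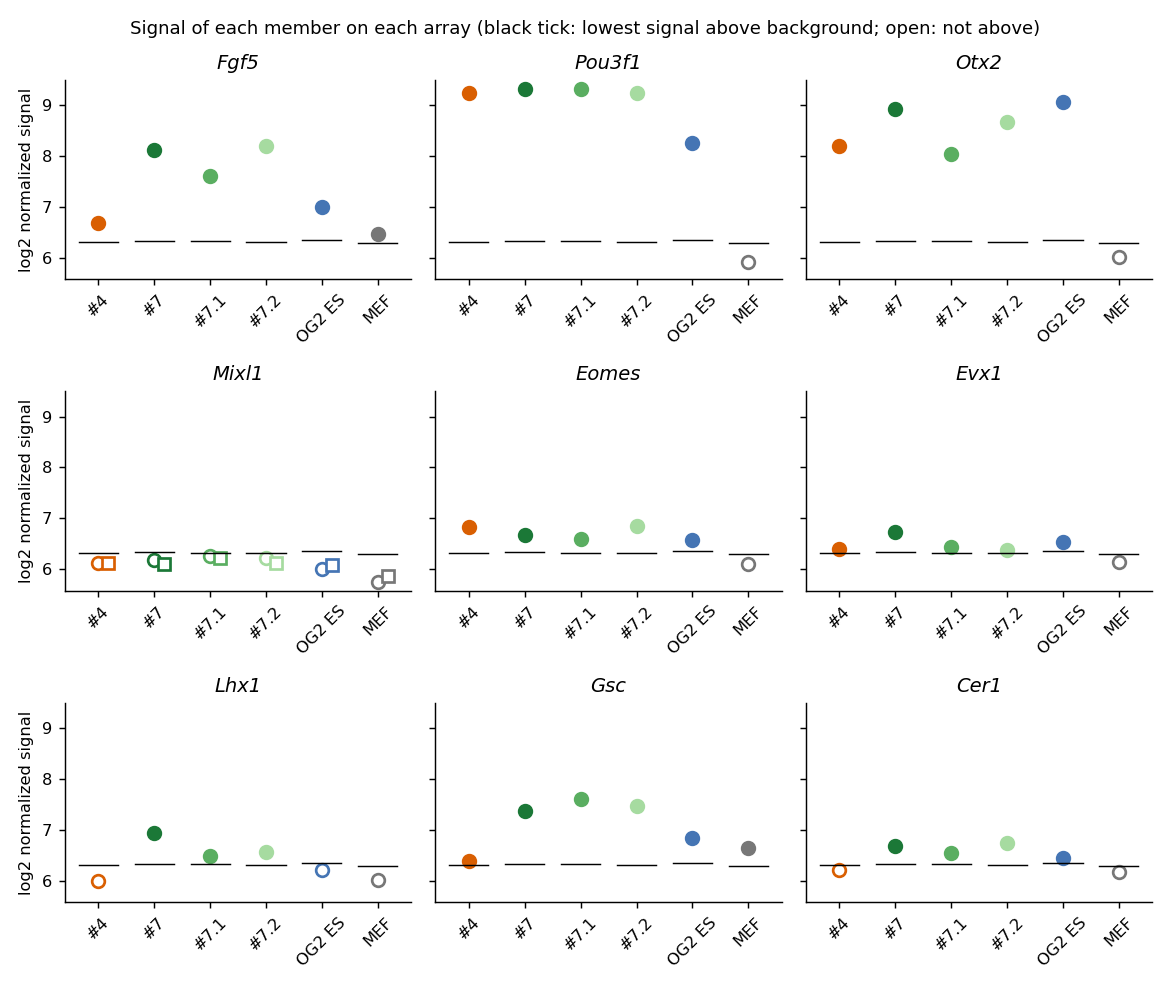
Log2 normalized signal (vertical axis) of the 9 measured genes in the 4 iPS cell lines, OG2 ES cells and MEFs (horizontal axis), with 1 point per array, squares for the second Mixl1 probe, open symbols where the probe was not above background and a black tick at the lowest signal above background. Fgf5 and Gsc were lower in line #4 than in lines #7, #7.1 and #7.2, Pou3f1 was between 9.23 and 9.32 in all 4 lines, and Mixl1 was open on all 6 arrays.

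The first comparison asked whether the iPS cells carry more of these transcripts than ES cells do. The 4 iPS cell lines were compared with OG2 ES cells by limma across all 10681 genes above background on at least 1 array, and a gene was called where its Benjamini-Hochberg adjusted p was under 0.05 and its difference at least 2-fold. OG2 ES cells and MEFs have 1 array each, and the fit takes their spread to be that of the iPS cell lines. The fit counts the 4 lines as independent, although line #7 and its subclones descend from 1 clone. Its SEs and p-values, against the ES cells and the MEFs, therefore rest on more lines than independent clones. A count of 4 of 4 lines holds only lines #4 and #7 as independent clones. Of the 8 members tested, 1 was higher and 0 were lower, where 0.44% of all genes tested were higher and 0.543% lower (0.983% in all). At an unadjusted p under 0.05 were 2 members, where 1976 of the 10681 genes tested were. Pou3f1 was higher in the iPS cells by 1.03 on the log2 scale (SE 0.14, 95% interval 0.73 to 1.33, adjusted p = 0.00155), in 4 of 4 lines. Otx2 was the other of these members, with a difference of −0.60 (SE 0.27, 95% interval −1.19 to −0.01, adjusted p = 0.259) and a lower signal in 4 of 4 lines. The remaining 6 members were not called, and their intervals show how far a difference could go. For Fgf5 it was 0.66 (95% interval −0.26 to 1.58, adjusted p = 0.452), since lines #7 and #7.2 were above the ES cells by 1.12 and 1.21 and line #4 was below them by 0.31. Without line #4 it was 0.98 (adjusted p = 0.00825, under 2-fold), with an adjusted p from 0.00825 to 0.81 over 12 alternatives. Gsc gave 0.37 (95% interval −0.39 to 1.13, and 0.65 without line #4), Lhx1 0.28 (−0.28 to 0.85), Eomes 0.16 (−0.16 to 0.49), Cer1 0.08 (−0.33 to 0.50) and Evx1 −0.05 (−0.41 to 0.30). The median over the 8 members was 0.22, or 0.15 with Lhx1 at its bound, against 0.02 over all genes tested. The Pou3f1 call was lost without background correction, where the difference was 0.95, and with lines #4 and #7 alone (1.04, adjusted p = 0.115). Over its 12 alternatives the adjusted p ran from 0.000423 to 0.115.

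Against FAH-/- MEFs, in the same fit, 3 of the 8 members were higher and 0 lower, where 13.1% of all genes tested were higher and 12.9% lower. Pou3f1 was higher by 3.36 (SE 0.14, adjusted p = 3.11e-09), or at least 7.88-fold, and Otx2 by 2.44 (SE 0.27, adjusted p = 9.57e-06), or at least 4.47-fold, both against a MEF signal that was not above background and in 4 of 4 lines. Fgf5 was higher by 1.18 (SE 0.42, 95% interval 0.26 to 2.10, adjusted p = 0.0323), in 4 of 4 lines, by 0.21 in line #4 and by 1.14 to 1.73 in the #7 family. Eomes passed the p threshold with a smaller difference of 0.62 (SE 0.15, adjusted p = 0.00353), and Gsc (0.56), Lhx1 (0.48), Cer1 (0.36) and Evx1 (0.34) passed neither, with adjusted p from 0.102 to 0.196. For 6 of the 8 members the MEF signal was not above background, so that their differences are bounds, at least 1.36-fold for Eomes and 1.14- to 1.18-fold for Evx1, Lhx1 and Cer1. The median over the members was 0.50 with these at their bounds and 0.59 as fitted, against 0.03 over all genes tested. These 6 passed the background filter only through iPS or ES cell arrays, so their positive sign was largely set beforehand. All genes tested include those above background in the MEFs, so the 2 medians are not alike and give no support. The Fgf5 call was lost in 7 of 12 alternatives. These were without background correction (0.96, under 2-fold), with the mean of the probes of a gene (adjusted p = 0.0722), with the authors' normalized values (adjusted p = 0.125), with lines #4 and #7 alone (0.93, adjusted p = 0.2), without line #7 (1.03, adjusted p = 0.0683), without line #7.1 (1.19, adjusted p = 0.0514) and without line #7.2 (1.00, adjusted p = 0.0683), and the adjusted p ran from 1.62e-05 to 0.2 over all 12.

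**Figure D2:**
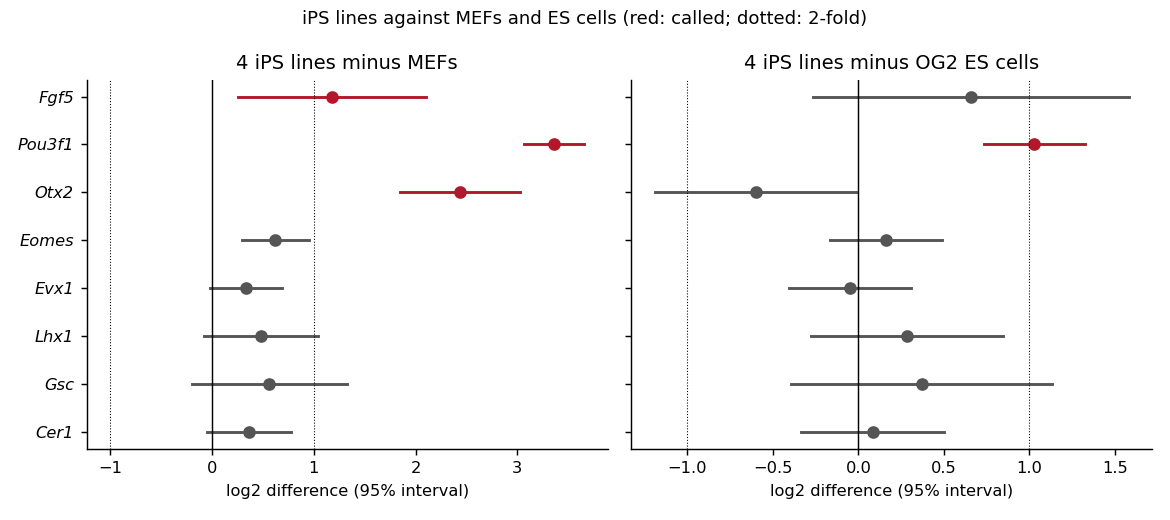
Log2 difference (horizontal axis) of the 8 tested members of the 4 iPS cell lines from MEFs (left) and from OG2 ES cells (right), from limma, with 95% intervals, members called in red and dotted lines at 2-fold. Pou3f1, Otx2 and Fgf5 were called against the MEFs, and Pou3f1 alone, at 1.03, against the ES cells.

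The iPS cell lines differed more from each other in several members than most genes did. Over the 4 lines the SD of the log2 signal was 0.70 for Fgf5, rank 8 from the top of 9795 genes above background in at least 1 line, and 0.56 for Gsc, rank 30. It was 0.41 for Otx2 (rank 121), 0.38 for Lhx1 (rank 153) and 0.24 for Cer1 (rank 953), against a median of 0.13 and a 90th percentile of 0.24 over all these genes. Evx1 (0.16) and Eomes (0.12) were near the median, and Pou3f1, at 0.04 and rank 9439, varied less than most genes. With 1 array a line, this spread holds differences between lines as well as the error of the array.

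**Figure D3:**
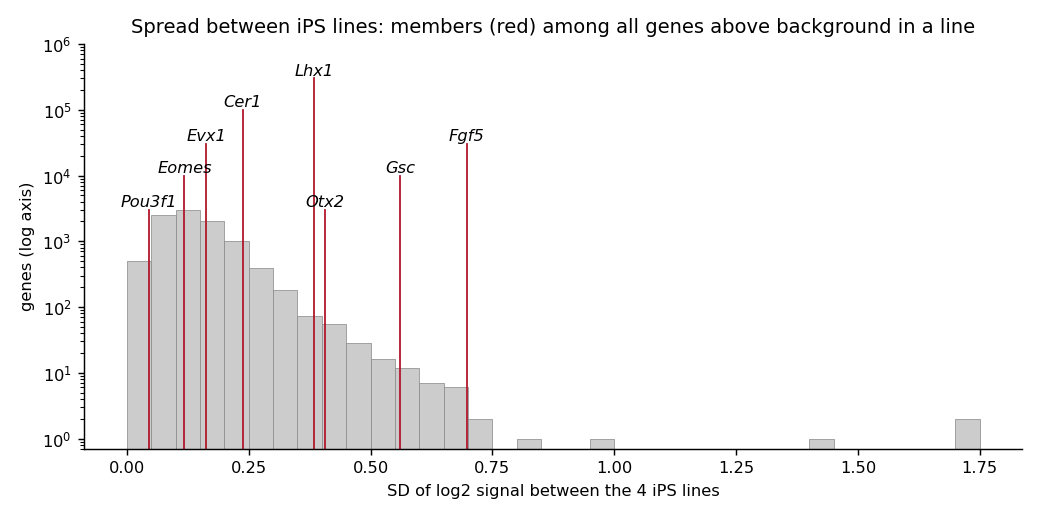
Number of genes (vertical axis, log scale) by the SD of their log2 signal between the 4 iPS cell lines (horizontal axis), for 9795 genes above background in at least 1 line, with the 8 members as red lines, whose heights carry no value. Fgf5 (0.70) and Gsc (0.56) lay in the thin right tail, and Pou3f1 (0.04) at the left end.

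Line #4, the independent clone, was then compared with lines #7, #7.1 and #7.2, which descend from 1 clone, by limma over 9795 genes. The single array of line #4 was assumed to vary like the other 3. Their spread is that of 1 clone and its subclones and holds no difference between independent clones. The p-values therefore cannot show that line #4 differs more than another independent clone would. Of the 8 members, 2 were lower in line #4 and 0 higher, where 0.112% of all genes tested were lower and 0.163% higher. Fgf5 was lower in line #4, with a log2 difference of −1.29 (SE 0.20, 95% interval −1.72 to −0.87, adjusted p = 0.0063), or 2.45-fold, rank 26 by p of all genes tested, and so was Gsc, with −1.10 (SE 0.15, 95% interval −1.42 to −0.78, adjusted p = 0.00287), or 2.14-fold, rank 14. In both genes line #4 lay below each of the 3 lines, an order whose share over all genes was not counted. The signals of line #4 were near background, 6.08 noise SDs over it for Fgf5 and 2.97 for Gsc, where the limit is 2.326. Lhx1 (−0.66, SE 0.17, adjusted p = 0.0816) and Cer1 (−0.45, SE 0.14, adjusted p = 0.154) were not called, and since neither was above background in line #4, their differences are bounds, at least 1.27-fold lower for Lhx1 and at least 1.26-fold lower for Cer1. Otx2 gave −0.35 (95% interval −0.87 to 0.18), but −0.60 without line #7.1 (adjusted p = 0.0143, under 2-fold, with 0.0143 to 0.787 over 10 alternatives) and −0.16 without line #7. The others were Evx1 −0.11 (−0.45 to 0.24), Pou3f1 −0.04 (−0.34 to 0.25) and Eomes 0.12 (−0.20 to 0.44). In all, 7 of 8 differences were below 0. Of these, Lhx1 and Cer1 passed the background filter only through the #7 family, so their sign was largely set beforehand. Neither this count nor the median of the members is therefore support. The difference of Pou3f1 turned to 0.072 with median scaling and that of Evx1 to 0.00177 without line #7. The median was −0.40 as fitted and −0.34 with Lhx1 and Cer1 at their bounds, against −0.00414 over all genes tested. Both calls held without each of lines #7, #7.1 and #7.2 in turn. They were lost with the authors' normalized values, where Fgf5 gave −1.45 (adjusted p = 0.14) and Gsc −1.37 (adjusted p = 0.0559), and Gsc was below 2-fold without background correction (−0.86). Over 10 alternatives the adjusted p ran from 2.21e-15 to 0.14 for Fgf5 and from 1.91e-07 to 0.0559 for Gsc, the lowest of each from a fit that leaves 1 residual degree of freedom.

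Fibroblast markers were read beside these values, since the iPS cells grew on feeder cells. The summed log2 signal of the 14 measured markers was 100.3 in line #4 and 98.6 to 101 in the #7 family, against 98.4 in OG2 ES cells and 152.8 in the MEFs. Of the 10 tested between the lines, 0 were called and 4 had an unadjusted p under 0.05, where 1340 of all 9795 genes tested had one. The 4 were Sparc (0.38) and Tgfbi (0.36) above 0 and Lum (−0.43) and Twist1 (−0.33) below 0. Col1a2, Col5a2, Pdgfrb and Postn were above background in the MEFs only. Several were well above background in all 4 lines. Thy1 read 9.22 in line #4 and 9.08 to 9.15 in the #7 family, and Sparc 9.97 in line #4 and 9.52 to 9.68 in the #7 family. Dcn read 8.59 in line #4, 9.19 in #7, 8.09 in #7.1 and 9.25 in #7.2. Lines #7 and #7.2 thus stood above lines #4 and #7.1. Of the tested members, Fgf5, Otx2, Lhx1 and Cer1 had that order, and Pou3f1, Eomes, Evx1 and Gsc did not. Among the other markers, Lum and Col3a1 had the same order of these 2 pairs, and Col1a1 and Sparc had the reverse order. Thy1, Twist1, Prrx1, Lox and Tgfbi had neither. The part of these cells in the members' values was not tested. Line #4 had an exported background of 103, against 89.1 to 101 in the #7 family, and 47.6% of its probes above background, against 46.6% to 47.7% in the #7 family. Whether background or scan bears on the line #4 values was not tested, and no chip or scan is named for any array in the labels.

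**Figure D4:**
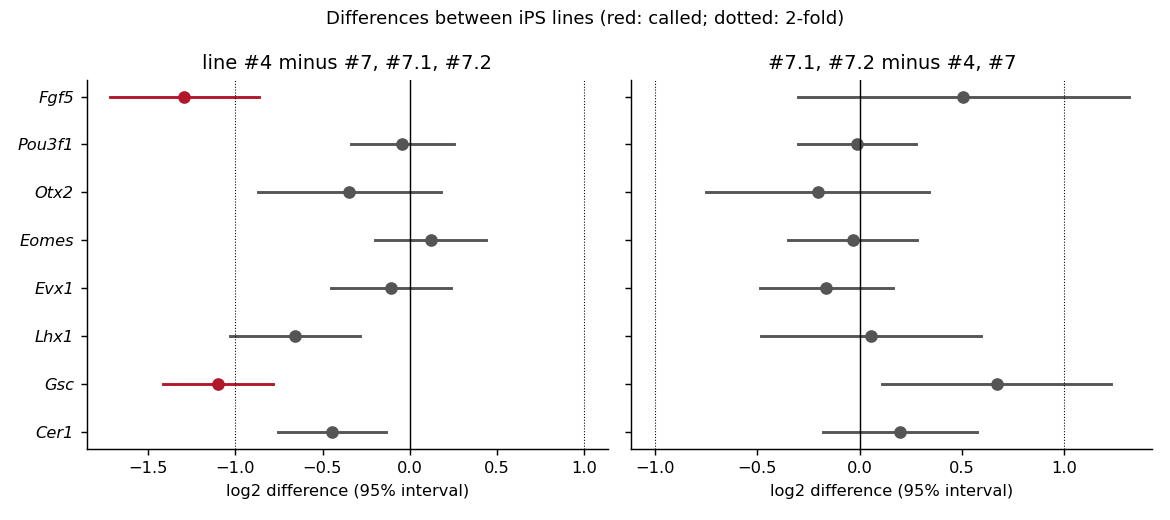
Log2 difference (horizontal axis) of the 8 tested members between line #4 and lines #7, #7.1 and #7.2 (left) and between the gene-corrected lines #7.1 and #7.2 and lines #4 and #7 (right), from limma, with 95% intervals, members called in red and dotted lines at 2-fold. Fgf5 (−1.29) and Gsc (−1.10) were called in the left panel and no member in the right.

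Gene correction was examined by comparing lines #7.1 and #7.2 with lines #4 and #7. Of 9795 genes tested by limma, 0 were called (0% in either direction) and 444 had an unadjusted p under 0.05, among them 1 of the 8 members. This was Gsc, with 0.67 (SE 0.25, 95% interval 0.11 to 1.23, adjusted p = 0.943), while Fgf5 gave 0.51 (95% interval −0.30 to 1.32, adjusted p = 0.943). The uncorrected group holds line #4, so both values contain the difference of that line. Without line #4 they were 0.18 for Gsc and −0.21 for Fgf5, and without line #7 they were 1.16 (adjusted p = 8.19e-05) and 1.22 (adjusted p = 0.000461), both then called. Over 11 alternatives the adjusted p of each ran up to 1. Set against line #7 alone, with no test, no member was 2-fold apart in line #7.1, where 0.111% of 9046 genes were, or in line #7.2, where 0.011% of 9053 genes were. The member farthest apart was Otx2 in line #7.1, at −0.88, followed by Fgf5 (−0.50) and Lhx1 (−0.45) in the same line. There 99.7% of genes above background in either array differed less than Otx2, 97.2% less than Fgf5 and 95.5% less than Lhx1. For the other tested members the share ran from 4.62% (Pou3f1) to 83.7% (Evx1). In line #7.2 the farthest was Lhx1, at −0.37, with a share of 94.4%, and the others ran from 26.2% (Cer1) to 93.1% (Evx1). Between lines #4 and #7, Fgf5 was 2-fold apart, at −1.43, where 0.428% of 9118 genes were, and Gsc came close, at −0.98.

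Other genes of the primed epiblast and the streak were read from lists, each described by the number of tested genes called and by its median. In the list of formative and primed epiblast genes that are not members, 0 of 14 were called in iPS cells against OG2 ES cells, with a median of 0.23, against 0.02 over all genes tested. The largest differences were those of Dnmt3b, a de novo DNA methyltransferase, at 0.90 (adjusted p = 0.0107, under 2-fold), and Fgf8, a growth factor of epiblast and streak, at 0.88 (adjusted p = 0.117). Against the MEFs, 7 of the 14 were higher and 0 lower, led by Dnmt3b (6.24), Tcf15 (2.58), a factor of cells primed to leave the naive state, and Etv4 (2.18), a target of FGF signalling. Of 16 naive pluripotency genes tested against the ES cells, 1 was higher, Zfp42 at 2.53 (SE 0.16, adjusted p = 4.86e-06), and 1 lower, Tcl1 at −1.13 (SE 0.17, adjusted p = 0.0038). The median was −0.34 and 1 difference of 16 was above 0, that of Zfp42 itself, with all 16 set against the same ES cell array. Against the MEFs, 14 of the 16 were higher and 0 lower.

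Among 12 tested genes of streak, mesoderm and node, 1 was higher in the iPS cells than in OG2 ES cells. This was Sp5, a Wnt target, which read 7.84 in line #4 and 8.19 to 8.40 in the #7 family, against 6.93 in the ES cells, a difference of 1.27 (SE 0.20, adjusted p = 0.00491). The list's median was 0.11. Of the 21 measured genes of the list, 8 to 10 were above background in each iPS cell line and 7 in the ES cells. Mesp1 and Mesp2 of nascent mesoderm, Foxa2 of node and endoderm, and Hand1, Wnt3 and Wnt3a were among those not above background on any array. Against the MEFs, Sp5 (2.17) and Fgf8 (1.65) were higher, and Pdgfra (−4.53), Snai1 (−2.13) and Fst (−1.39), which fibroblasts also express, were lower. In the endoderm list, 0 of 11 were called against the ES cells (median 0.02), with Cxcr4 (−0.27) and Sox17 (−0.21) farthest from 0. Against the MEFs, Hhex (1.30) was higher and Dab2 (−3.63) and Gata6 (−1.03) lower.

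Of the 8 lists, that of Nodal, Wnt and BMP inputs of the streak was the one with genes called between line #4 and the #7 family, 2 of 17 tested, among 27 genes called in all. Bmp4, a ligand that induces posterior streak, was higher in line #4, at 8.72 against 7.42 to 7.50 in lines #7, #7.1 and #7.2 (1.27, SE 0.14, adjusted p = 0.000812). Lefty2, a Nodal antagonist that Nodal signalling switches on, was lower, at 9.45 in line #4 against 10.2 to 11.2 in the #7 family (−1.20, SE 0.26, adjusted p = 0.0368). None of the 13 tested formative genes, 12 streak genes, 10 endoderm genes or 15 naive genes was called in that comparison, and their medians were 0.01, −0.15, −0.06 and 0.11. Farthest from 0 in the streak list were Chrd (−0.90), a BMP antagonist of the node, and Fgf8 (−0.82). In the other lists they were Grhl2 (0.86) of the formative, Gata6 (−0.81) of the endoderm and Tbx3 (0.94) and Dppa3 (−0.81) of the naive genes. All of these were under 2-fold, and that limit alone, not the adjusted p, kept them uncalled. Against the ES cells, Tdgf1, the Nodal co-receptor, was the 1 of 17 inputs called, higher by 1.47 (SE 0.17, adjusted p = 0.000756) with its brightest probe, while its other probe, also above background in these cultures, gave −0.33, so that its direction is not settled. Against the MEFs, 7 were higher, led by Lefty2 (4.49), Gdf3 (3.81) and Tdgf1 (3.74), and 3 lower, Furin (−2.50), Inhba (−1.18) and Bmp4 (−1.12). In the comparison of the gene-corrected lines, 0 genes of any list were called.

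Lists for other cell types the cultures could hold held no gene called in iPS cells against OG2 ES cells. Of 8 tested genes of early neural and surface ectoderm 0 were called, with En2 at 0.64 and Krt8 at −0.34, of 7 trophoblast genes 0, with Gata3 at −0.76 and Tfap2c at −0.46, and of 14 fibroblast genes 0, with Lox at 0.71 and Dcn at 0.50. Against the MEFs, the ectoderm list had 4 higher, led by Krt8 (3.59), Krt18 (2.47) and Nes (1.17), and 1 lower, Zic1 (−2.04). The trophoblast list had 1 higher, Tfap2c (4.95), and the fibroblast list had 13 of 14 lower, led by Col1a2 (−6.18) and Lox (−5.74).

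**Figure D5:**
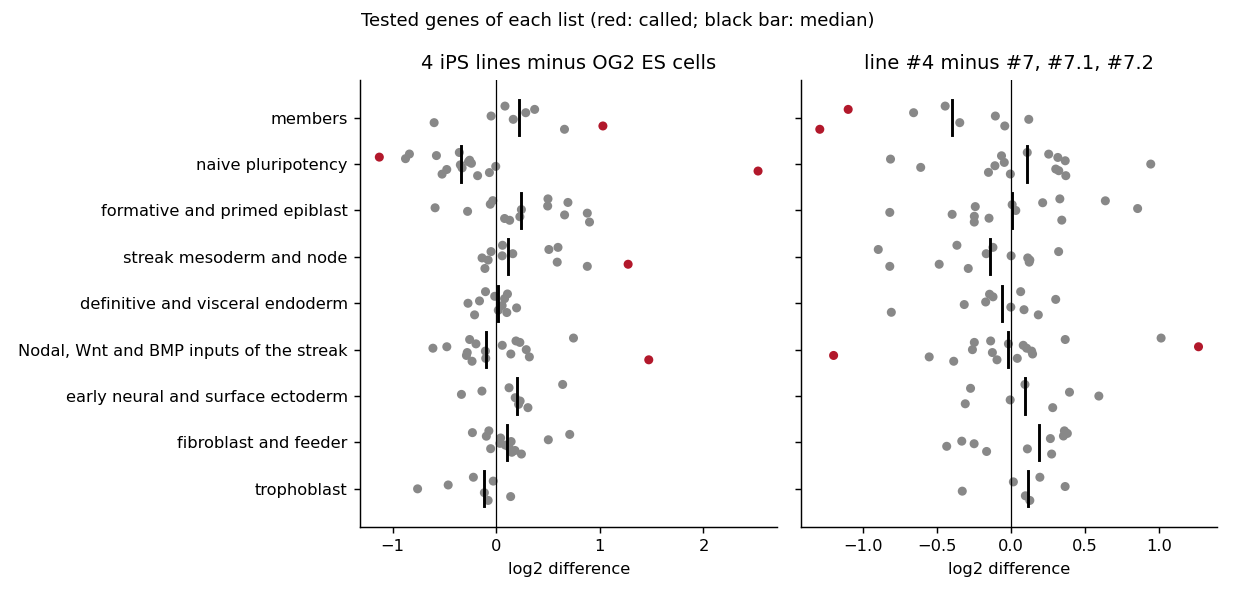
Log2 differences (horizontal axis) of the tested genes of the members and of 8 lists (rows) of the 4 iPS cell lines from OG2 ES cells (left) and between line #4 and lines #7, #7.1 and #7.2 (right), with 1 point per gene, genes called in red and list medians as black bars. The naive list lies left of 0 against the ES cells apart from Zfp42 (2.53), and the members have the lowest median, −0.40, in the right panel. That median includes Lhx1 and Cer1, which were not above background in line #4.

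The genes whose pattern over the 6 arrays was nearest to that of a member were found by root mean square difference of the centred log2 signals. They were sought among 8514 genes above background on at least 3 arrays. For Fgf5 they were Mid1 (0.21), 1110017D15Rik (0.23) and Sbk1 (0.27), for Pou3f1 Spink1 (0.16), Dmtn (0.17) and Itpk1 (0.22), and for Otx2 Hmgb2 (0.24), Large2 (0.27) and Kcnk1 (0.28). For Gsc they were Tafa4 (0.19), Zfp36 and Slc38a2 (both 0.20), and for Lhx1 Pla2g12a (0.10), Tmem266 (0.12) and Tasp1 (0.13). Within 0.2 lay 0 genes for Fgf5 and for Otx2, 2 for Pou3f1 and for Gsc, and 99 for Lhx1. The patterns of Eomes, Evx1 and Cer1, with signals near background, were shared by many, since 1568, 1782 and 1055 genes lay within 0.2 of them. Nearest were Recql5, Gps1 and Supt4b to Eomes, Rnf31, Usp38 and Dnajc5 to Evx1, and Vps37b, Arid4b and Unc119b to Cer1.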

How the data were processed

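Total RNA of 6 cultures was hybridised to 1 Illumina mouse-8 V2 BeadChip array each. The authors deposited, per the files, the probe intensity exported from BeadStudio (version not given in the sources used here) and a table in which those intensity values had their background subtracted and were normalized by cubic splines. With limma 3.58.1 (R 4.3.3), exported signals were corrected by normexp with an offset of 50 and quantile normalized, and log2 was taken. No detection p was used. The background of an array is the exported signal at which the authors' value is 0, and its noise SD comes from the probes below it. A gene is its brightest probe, tested where above background (one-sided noise tail 0.01) on at least 1 array of the fit, and a bound against a group below background uses the lowest signal above it. Fits had 3 residual degrees of freedom (MEFs, ES cells) or 2 (between lines), with Benjamini-Hochberg adjustment, and no source names separate cultures of a line, so p-values reflect the spread over these single arrays alone. Of 25697 probes, 23978 name 1 gene, and 23962 matched a RefSeq gene. Named were all members, up to 3 called genes a list and direction, otherwise the 2 largest, and the 3 nearest patterns. Genes named as not above background were chosen after their values were seen. Members and lists were chosen with earlier results of these data known. The steps were tested on simulated arrays.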

Additional observations from a re-analysis of the deposited data

Results flagged for a closer look

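Evx1 was flagged because 1 of the 4 iPS cell lines stood far from the other 3, with 6.73 in line #7 and 6.38 to 6.43 in lines #4, #7.1 and #7.2. Chance flags about 1 in 20 groups of this size, and 9 members were examined, Mixl1 among them, which was not above background.

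Fgf5 and Gsc were flagged because the difference from OG2 ES cells or MEFs was not the same in line #4 and in the #7 family by the test of that difference. It was −1.29 on the log2 scale for Fgf5 and −1.10 for Gsc, with line #4 lower than lines #7, #7.1 and #7.2 in both. Against the ES cells, Fgf5 stood at −0.31 in line #4 and at 0.62 to 1.21 in the #7 family, and Gsc at −0.46 in line #4 and at 0.52 to 0.78 in the #7 family, so that both genes lay on opposite sides of the ES cells in the 2 sets of lines. Both sets of lines share the single ES cell array. Between line #4 and the ES cells, 67.7% of genes above background in either differed less than Fgf5, and 83.5% less than Gsc.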

How the results depend on the processing

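Over the alternatives, 332 tested differences of members kept their direction and their side of the threshold, 12 lost it, 2 gained it and 14 changed sign, and of differences between single arrays 245 kept within the spread and 52 moved beyond it. The number of members called against OG2 ES cells was 0 without background correction and 0 with lines #4 and #7 alone. For line #4 it was 1 without background correction and 0 with the authors' values plus 50. Leaving out 1 line gave 2 to 3 members called against MEFs and 0 to 2 for gene correction, the 2 without line #7. With lines #4 and #7 alone, Evx1 (0.031) and Cer1 (−0.016) changed sign against the ES cells. With median scaling, Pou3f1 changed sign for gene correction (0.063) and for line #4 (0.072). Leaving out 1 line, the gene correction values ran from −0.21 to 1.22 (Fgf5), −0.051 to 0.026 (Pou3f1), −0.57 to 0.16 (Otx2), −0.16 to 0.089 (Eomes), −0.41 to 0.52 (Lhx1) and −0.035 to 0.43 (Cer1), and the line #4 value of Evx1 from −0.17 to 0.00177. The cause of these changes was not tested.

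Over all genes, median scaling gave 1050 higher and 1846 lower against MEFs (1400 and 1380 otherwise), 68 and 40 against ES cells (47 and 58) and 29 and 7 for line #4 (16 and 11). The ES cell counts were 22 and 19 with lines #4 and #7 alone and 40 and 33 with the authors' values, and the line #4 counts 9 and 4 without background correction and 0 and 1 with the authors' values. The gene correction counts were 9 and 20 without line #7.

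Signals of Eomes, Evx1, Lhx1 and Cer1 lie near background, where small differences cannot be measured, and 1 array a culture leaves the error of each unknown. No paired analysis was possible because the labels number no replicates, and numbers given in accession order pair no samples.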
